A study of Mus musculus with 4 samples.

Results

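Long noncoding RNAs of the DLA tumor were followed through 8 genes, the small nucleolar RNA (snoRNA) host genes Snhg1, Snhg3, Snhg12, Snhg20 and Gas5, the microRNA host gene Mir100hg, and the nuclear RNAs Malat1 and Neat1. The genes were chosen by symbol out of the 32285 genes listed in the deposited count matrices, with earlier results of these data known. The cells were selected on measured values. A cell was tumor-gated with at least 5 unique molecular identifiers (UMIs) of the keratin genes Krt8 and Krt18 together, and an immune gate required at most 4 keratin UMIs and a minimum of immune marker UMIs. Of 4404 kept cells, 3211 were tumor-gated, 188 macrophage- and monocyte-gated, 304 B-gated, 113 T-gated and 67 neutrophil-gated. A contrast between these gates is therefore a description, and tests were made only between treatments and between cycle phases.

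DLA is a transplantable ascites tumor of mice that the labels call a lymphoma. Swiss albino mice carried DLA cells given into the peritoneum, and droplet 3′ single-cell libraries were made from 2 control tumors (Control 1 and Control 2) and from 2 tumors of mice that received SP11, described by the study as an HSP90 inhibitor, orally for 17 days, each dose 30 mg/kg (Treated 1 and Treated 2). Per the labels the control mice were untreated, whereas a supplementary legend speaks of vehicle. Tumor tissue of 1 line in 1 host strain was digested to single cells, the host kept its own immune cells, and nothing in the labels says how many mice were behind a library.

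The kept cells held between 9574906 and 13024964 UMIs per library, and values for 4 libraries are given throughout with Control 1 first, then Control 2, Treated 1, and last Treated 2. The tumor-gated cells numbered 845, 528, 1256 and 582, with a median of 10935, 17214, 8891.5 and 19843 UMIs per cell. Libraries shared cell barcodes, from 54 to 215 kept barcodes for each pair of libraries and 630 distinct barcodes in all. The tumor-gated cells went against the lymphoma label. Over Ptprc, Cd3e, Cd3d, Cd79a, Cd4 and Cd8a, they summed to 1.97, 1.58, 42.2 and 22.2 CPM (UMIs of a gene scaled to a total of 1e6 UMIs), against 5719 and 5781 CPM in B-gated cells. Cd79a is also a gene of the B gate, so the level in B-gated cells was set in part by their selection. The 7 epithelial markers outside the gate summed to between 1739 and 2759 CPM, but they were not alike. Krt7, Krt19 and Epcam were at 194.1 CPM or more in each library. Cldn6 was at 7.7 to 10.6 CPM, Cldn4 at 1.37 to 3.53 CPM and Cdh1 at 0.165 to 0.651 CPM, and Cldn7 had 0 UMIs. The 7 T cell markers outside the gate summed to 62.4, 65.7, 78.5 and 92.7 CPM in tumor-gated cells, against 2997 CPM in T-gated cells of Treated 2. Of these 7 markers, 6, 2, 7 and 7 had UMIs in tumor-gated cells, so in Control 2 the sum came from 2 genes. The cells are called tumor-gated here, after the rule.

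snoRNA host genes are transcribed by RNA polymerase II and spliced, and the snoRNAs, which guide the modification of ribosomal RNA, are cut from their introns. Many of these hosts carry the pyrimidine-rich start of translation-machinery genes, and their spliced RNA is usually degraded when it is translated. Malat1 is a very abundant RNA of nuclear speckles, where splicing factors gather, and Neat1 is the scaffold of paraspeckles and responds to stress and to immune stimuli. Mir100hg gives rise to miR-100, let-7a and miR-125b, and in 3′ libraries only its polyadenylated transcripts are counted, not the microRNAs.

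Coordinates are those of the GENCODE annotation of GRCm38, the assembly also named mm10. Snhg1 (ENSMUSG00000108414) lies at chr19:8723475-8726443 on the plus strand with 8 snoRNA genes inside it. Gas5 (ENSMUSG00000053332) lies at chr1:161034422-161038539, plus strand, with 9 snoRNA genes, and its 5′ end overlaps the protein-coding gene Zbtb37 of the opposite strand by 428 bases. Snhg12 (ENSMUSG00000086290, chr4:132308623-132311024, plus strand) holds 4 snoRNA genes. Snhg20 (ENSMUSG00000086859, chr11:117076008-117078955, plus strand) holds 1 gene of a small Cajal body RNA, a relative of snoRNAs, and 1 microRNA gene, with 0 annotated snoRNA genes, and is counted among the hosts by its name. Snhg3 (ENSMUSG00000085241, chr4:132348014-132353686, minus strand) holds 2 snoRNA genes and is overlapped over 98.6% of its length by the protein-coding gene Rcc1 on the same strand, so that reads of these 2 genes may not be told apart and the values of Snhg3 are uncertain. Mir100hg (ENSMUSG00000074415, chr9:41327077-41716994, plus strand) holds 3 microRNA genes and overlaps Gm49317 on the same strand over 46.3% of its length. Malat1 (ENSMUSG00000092341, chr19:5795690-5802672) and Neat1 (ENSMUSG00000092274, chr19:5824708-5845478) are neighbours on the minus strand.

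The start regions are printed because pyrimidine-rich starts are a known property of such host genes, and the members differ in them. RefSeq start regions of GRCm38.p6 were matched for 7 of the 8 members. They are shown 5′ to 3′ from 50 bases before the annotated first base to 20 bases from it onward, with the letters TATA between 40 and 21 bases before the start and a run of at least 3 pyrimidines from the first base in capitals.
Gas5 downstream start: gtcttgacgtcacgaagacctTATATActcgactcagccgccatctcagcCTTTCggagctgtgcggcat
Snhg12: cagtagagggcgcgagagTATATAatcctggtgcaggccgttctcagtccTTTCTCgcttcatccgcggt
Snhg1: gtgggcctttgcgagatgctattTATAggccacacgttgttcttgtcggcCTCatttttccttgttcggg
Snhg20: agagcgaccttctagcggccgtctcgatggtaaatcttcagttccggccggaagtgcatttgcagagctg
Snhg3: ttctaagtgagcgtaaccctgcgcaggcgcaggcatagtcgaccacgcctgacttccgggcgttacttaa
Malat1: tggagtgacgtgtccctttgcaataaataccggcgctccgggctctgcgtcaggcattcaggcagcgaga
These windows lie at chr1:161035116-161035185 (plus) for Gas5, chr4:132308628-132308697 (plus) for Snhg12, chr19:8723437-8723506 (plus) for Snhg1, chr11:117076733-117076802 (plus) for Snhg20, chr4:132353667-132353736 (minus) for Snhg3 and chr19:5802653-5802722 (minus) for Malat1. TATA, read on the transcribed strand with overlapping matches allowed, and a run of at least 3 pyrimidines stood together in the starts of Gas5, Snhg12 and Snhg1. Over all 32851 start regions of the table, 5.34% had TATA in that window, 10.7% began with at least 3 pyrimidines and 0.514% had both. The windows of Snhg20, Snhg3 and Malat1, the 2 of Mir100hg and the upstream start of Gas5 had neither. A match is a property of the letters and was not tested as a site.

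The 3 microRNAs of Mir100hg have different seeds, here bases 2 to 8 in capitals, and are printed to show what the host gene encodes.
miR-100-5p: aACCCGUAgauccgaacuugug
let-7a-5p: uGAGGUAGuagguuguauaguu
miR-125b-5p: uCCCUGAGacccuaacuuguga
They come from RefSeq hairpins on the plus strand of GRCm38.p6, at chr9:41531437-41531458, chr9:41536732-41536753 and chr9:41581940-41581961.

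Within the tumor-gated cells, each member was detected in all 4 libraries, on 231 UMIs or more. CPM of a 3′ library are not scaled by transcript length, so levels are compared here within a gene and not between genes. Malat1 was at 5194, 4287, 4020 and 4098 CPM. Neat1 was at 37.4, 33.9, 54.3 and 63.9 CPM. The treated libraries lay below the controls for Malat1 and above them for Neat1, without overlap. Mir100hg was at 77.3, 60.1, 64.3 and 82.9 CPM, and its groups overlapped.

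Among the snoRNA hosts, Gas5, named for its rise in growth-arrested cells, was at 60.3 and 80.8 CPM without SP11 and at 50.2 and 66.3 CPM with it. Snhg3, the host of the U17 snoRNAs, was at 48.6 and 56.9 against 38.5 and 48.1 CPM. For Gas5 the groups overlapped. For Snhg3 the libraries Control 1 and Treated 2 were nearly level. Snhg20 was at 84.2 and 68.1 against 85.7 and 76.3 CPM, Snhg1 at 44.6 and 53.7 against 46.3 and 51.4 CPM, and Snhg12 at 23.9 and 31.3 against 24.9 and 28.1 CPM, all with overlapping groups.

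**Figure D1:**
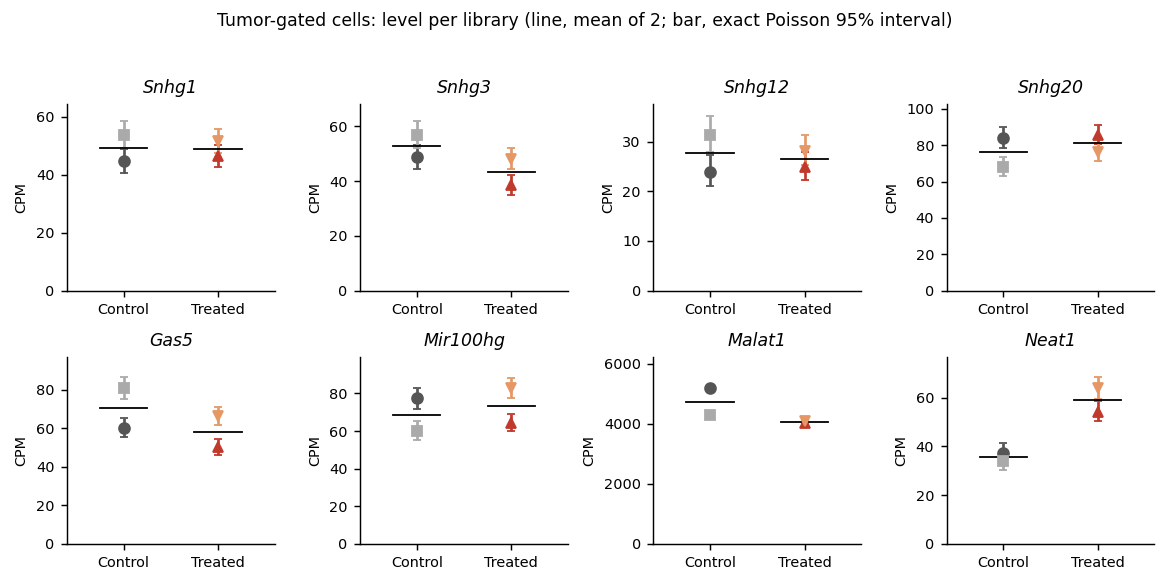
Level of each member in tumor-gated cells, in CPM on an axis from 0, for the 2 control (circle, square) and 2 SP11-treated (triangles) libraries; the bar on a point is the exact Poisson 95% interval of its count and the black line is the mean of the group. Both treated points of Neat1 (54.3 and 63.9 CPM) stand above both control points (33.9 and 37.4 CPM), while the groups of Snhg1, Snhg12, Snhg20, Gas5 and Mir100hg overlap. The share of all genes with separated groups was not counted.

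The first comparison asked which members differed between SP11-treated and control tumors within the tumor-gated cells. Neat1 rose by 0.60 on the log2 scale (SE 0.13, adjusted p = 0.017, edgeR quasi-likelihood test on UMIs summed per library, Benjamini-Hochberg adjustment over 11588 genes), and was higher in 2 of 2 treated libraries than in both controls. It was the 1 member of 8 called higher, beside 1.81% of all genes tested, and 0 members were called lower in edgeR or DESeq2, beside 0.501% of all genes in edgeR. At an unadjusted p under 0.05 in edgeR, 1 member was higher and 3 were lower, beside 1691 of 11588 genes in either direction. The members other than Neat1 did not pass this test. With the replicate number as a block, Snhg3 (-0.42, adjusted p = 0.00445), Gas5 (-0.40, adjusted p = 0.00492) and Malat1 (-0.34, adjusted p = 0.0387) passed as lower, beside 384 of 11588 genes. Within each number all 3 were lower in the treated library, but whether the numbers pair libraries is not stated. Without the block the log2 fold changes were -0.41 for Snhg3 (SE 0.13, adjusted p = 0.128), -0.41 for Gas5 (SE 0.14, adjusted p = 0.185), -0.35 for Malat1 (SE 0.16, adjusted p = 0.306), -0.19 for Snhg12 and -0.13 for Snhg1. Mir100hg at -0.04 and Snhg20 at -0.03 had no stable direction, and with scaling by library size alone both were above 0, at 0.10 and 0.09.

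The median log2 fold change of the 8 members was -0.16, beside -0.0039 over all genes tested. That zero point depends on the scaling. With library size in place of TMM factors, a choice made after seeing the data, the median over all genes was 0.12 and the log2 fold change of Neat1 was 0.73 (adjusted p = 0.00181). Changes are given here relative to the TMM zero point. With 2 libraries against 2, the smallest two-sided exact permutation p for any single value is 0.333.

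Neat1 was also read as a share of cells. After each tumor-gated cell was thinned to 5000 UMIs, which left out 46 of 845, 17 of 528, 105 of 1256 and 7 of 582 cells, Neat1 was detected by a UMI in a share of 16.4% and 15.3% without SP11, with 95% exact Clopper-Pearson intervals of 13.9% to 19.1% and 12.3% to 18.7%. With SP11 it was 23.9% and 25.9%, with intervals of 21.4% to 26.5% and 22.4% to 29.7%. Without thinning the shares were 30.2%, 36.6%, 36.0% and 61.2%, from cells of unequal depth. The intervals cover counting error only, and those of the thinned shares do not overlap between the groups.

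Neat1 is abundant in macrophages, and macrophage markers moved with it. The 7 macrophage markers outside the gate (Lyz2, Ctss, Cd14, Mrc1, Mpeg1, Tyrobp and Fcer1g) summed to 22.5, 23.0, 187.9 and 73.7 CPM in tumor-gated cells. The last 2 values are 1.24% and 0.436% of their level in macrophage-gated cells of Treated 1 and Treated 2. The same percentages of the Neat1 level of macrophage-gated cells come to 4.42 and 2.01 CPM, and for neutrophil markers and neutrophil-gated cells to 3.12 and 1.85 CPM. Neat1 stood at 54.3 and 63.9 CPM in these tumor-gated cells, which is 18.6 and 28.2 CPM above the mean of the controls, where the scaled values were between 0.321 and 0.8 CPM. The scaling takes Neat1 and the markers to be carried over in equal proportion, which is not known. How much of the rise came from immune RNA was not tested. Hemoglobin UMIs moved too, at 267, 177.7, 10605 and 4735 CPM, and with hemoglobin genes left out the log2 fold change of Neat1 was 0.60 (adjusted p = 0.016). Restricted to tumor-gated cells with at most 1 macrophage UMI, a choice made after seeing the data, the log2 fold change of Neat1 was 0.51 and no longer passed the test (adjusted p = 0.0858). Without the tumor-gated cells that also reached an immune gate, which made up 0.947%, 0.379%, 7.01% and 6.53% of them, it was 0.57 (adjusted p = 0.0283). The call was lost with DESeq2 (0.59, adjusted p = 0.0681), without Control 1 (0.69, adjusted p = 0.0591) and without Control 2 (0.51, adjusted p = 0.25), and it was kept without cells whose barcode was in more than 1 library (0.60, adjusted p = 0.0287).

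The other noncoding genes of the lists gave few calls. Of 23 entries of other snoRNA host genes that could be tested, 0 rose and 1 fell, beside 1.81% and 0.501% of all genes, with a median log2 fold change of -0.23. At an unadjusted p under 0.05 there were 0 higher and 6 lower, beside 1691 of 11588 genes in either direction. The one that fell was Snhg8, a host of an H/ACA snoRNA, with -0.85 (SE 0.21, adjusted p = 0.0415). Of 14 other long noncoding genes, 0 passed the edgeR test, with a median of 0.20. At an unadjusted p under 0.05, 4 of them were higher and 0 lower, beside the same 1691 of 11588 genes. The coding neighbours Slc3a2, Rcc1, Trnau1ap, Zbtb37 and Sec14l1 did not pass either, with log2 fold changes between -0.22 and 0.18.

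The second comparison set the cycle phases of the tumor-gated cells against each other. Phases were called from lists of 46 S and 54 G2/M genes, none of them a member, and UMIs were summed per library and phase. Between 33.9% and 44.3% of the tumor-gated cells of a library were called G1, between 22.3% and 29.7% S and between 32.1% and 36.4% G2M. G1 cells had the lowest and G2M cells the highest median depth in all 4 libraries, for example 9226, 11141 and 13358 UMIs in G1, S and G2M of Control 1.

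Snhg20 fell with the cycle. It was at 107.1, 93.0, 108.5 and 113.2 CPM in G1. In S it was at 78.1, 50.2, 76.3 and 64.2 CPM, and in G2M at 65.1, 60.5, 68.4 and 59.4 CPM. The 4 G1 values lay above all 8 values of the other phases. The log2 fold change was -0.70 in S against G1 (SE 0.07, adjusted p = 3.34e-11) and -0.81 in G2M against G1 (SE 0.06, adjusted p = 1.11e-14), with the library as a block.

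Snhg3 was at 61.4, 72.3, 44.3 and 65.9 CPM in G1. It stood at 49.2, 59.3, 40 and 43.0 CPM in S and at 35.6, 43.0, 31.6 and 39.5 CPM in G2M, with the order G1, S, G2M in every library. Its log2 fold changes were -0.40 in S (SE 0.08, adjusted p = 0.000345) and -0.76 in G2M (SE 0.08, adjusted p = 5.48e-11). Rcc1, the gene that overlaps Snhg3 and encodes the exchange factor of the GTPase Ran, rose by 0.80 in S (SE 0.17, adjusted p = 0.000524) and had 0.41 in G2M (SE 0.17, adjusted p = 0.076). In S, the UMIs counted for Snhg3 thus went the other way from those counted for the gene around it.

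Mir100hg was at 89.3, 69.3, 70.1 and 105.5 CPM in G1, at 66.8, 60.5, 64.5 and 78.3 CPM in S and at 71.8, 52.7, 58.1 and 70.4 CPM in G2M. It was lower in S and in G2M than in G1 in each of the 4 libraries, by log2 fold changes of -0.34 (SE 0.07, adjusted p = 0.000361) and -0.47 (SE 0.07, adjusted p = 1.28e-07). Malat1 went the opposite way. It was at 4441, 3478, 3504 and 3389 CPM in G1, at 5636, 4884, 4361 and 4150 CPM in S and at 5676, 4518, 4329 and 4555 CPM in G2M. In each library both later phases were above G1, with log2 fold changes of 0.31 in S (SE 0.03, adjusted p = 1.18e-13) and 0.29 in G2M (SE 0.03, adjusted p = 5.43e-13).

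**Figure D2:**
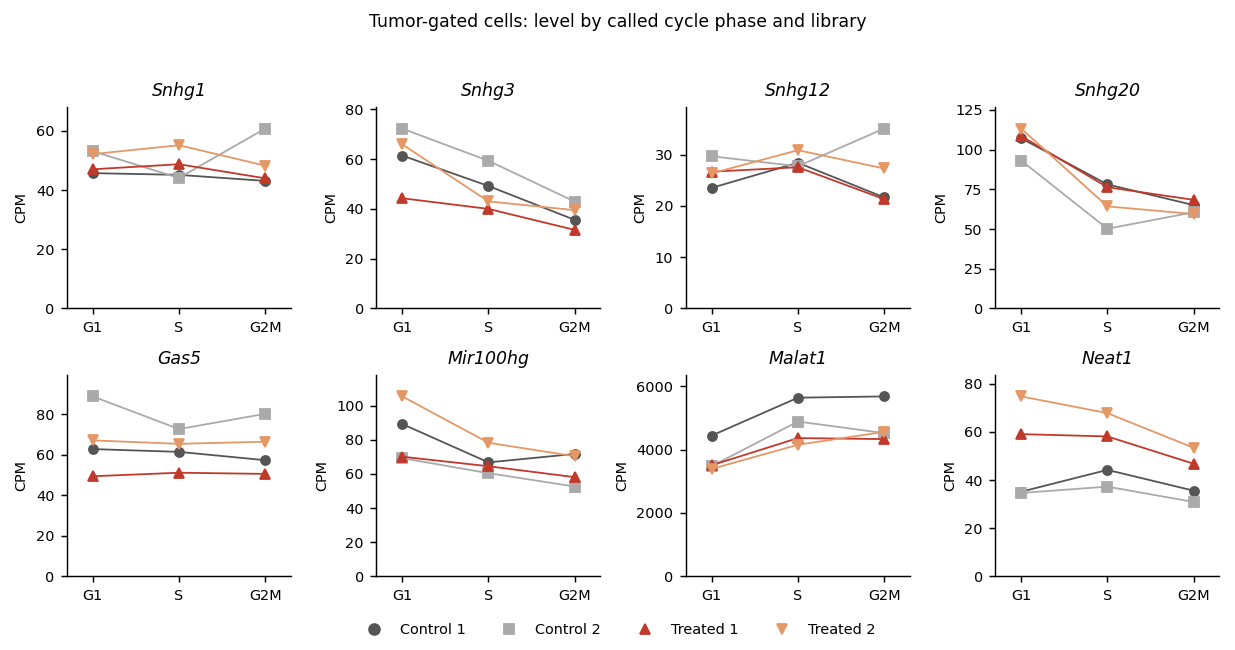
Level of each member in CPM, on axes from 0, in tumor-gated cells called G1, S and G2M, with 1 line per library. The lines of Snhg20, Snhg3 and Mir100hg fall from G1 to G2M in all 4 libraries and those of Malat1 rise from G1 to S, whereas Snhg1, Snhg12 and Gas5 show no common direction.

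Neat1 did not pass in S (log2 fold change -0.02, adjusted p = 0.928) and fell in G2M by 0.36 on the log2 scale (SE 0.08, adjusted p = 0.000504). Its G1 levels were 35.2, 34.6, 59.1 and 74.8 CPM and its G2M levels 35.6, 30.9, 46.8 and 53.5 CPM. The lower level in G2M was thus seen in 3 of 4 libraries and was larger in the treated libraries than in the controls, a difference that was not tested. With cells thinned to 5000 UMIs the log2 fold change was -0.34 and its adjusted p 0.0584. Gas5, Snhg12 and Snhg1 did not pass in either phase. Their log2 fold changes in G2M were -0.14 (SE 0.07, adjusted p = 0.163), -0.10 (SE 0.11, adjusted p = 0.57) and -0.10 (SE 0.08, adjusted p = 0.469), and in S they lay between -0.13 and 0.06.

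In S against G1, 1 member was called higher and 3 lower, beside 8.0% and 6.69% of 10441 genes tested, and in G2M against G1, 1 was called higher and 4 lower, beside 9.53% and 11.6%. The median log2 fold change of the members was -0.10 in S and -0.25 in G2M, beside -0.0068 and -0.010 over all genes. With scaling by library size the share of higher calls among all called genes went from 54.5% to 71.0% in S and from 45.1% to 69.7% in G2M, and the 9 member calls held. The calls of Snhg20, Snhg3, Mir100hg and Malat1 also held in both phases without any 1 library, with thinned cells, without the cells that scored within 0.02 of 0 (18.4% of cells) and without cells of more than 1 macrophage UMI.

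**Figure D3:**
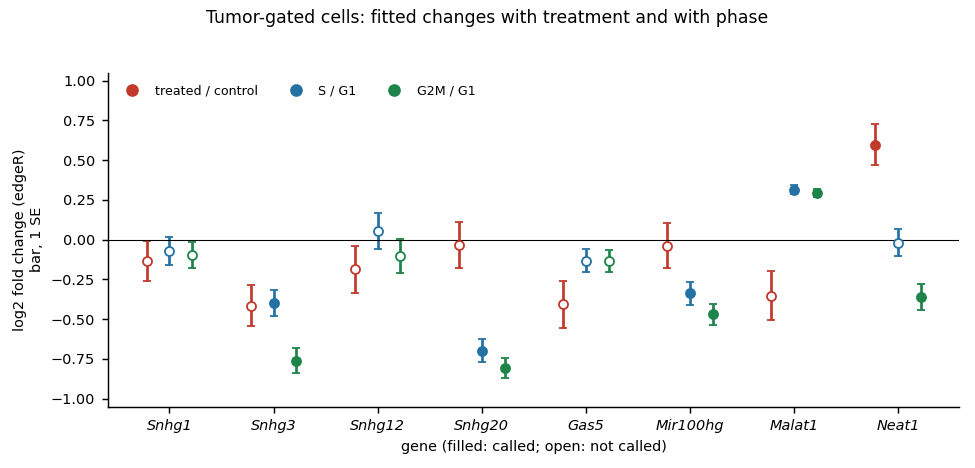
Fitted log2 fold change of each member in tumor-gated cells for SP11-treated against control (red), S against G1 (blue) and G2M against G1 (green); bars are 1 SE and filled points passed the adjusted threshold of 0.05. Neat1 is filled in red at 0.60, Malat1 is filled above 0 in both phases, and Snhg3, Snhg20 and Mir100hg are filled below 0 in both.

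Other snoRNA hosts were called in both directions. Of 23 tested entries, 2 rose and 2 fell in S, beside 8.0% and 6.69% of all genes, and 2 rose and 6 fell in G2M, beside 9.53% and 11.6%, with medians of -0.05 and -0.08. In S the 2 that rose were Nop56, a core protein of box C/D particles (0.15, adjusted p = 0.0324), and Ncl, which encodes nucleolin (0.12, adjusted p = 0.00719), and the 2 that fell were Epb41l4aos (-0.25) and Taf1d (-0.19). Among those called in G2M the largest decreases were those of Snhg4 (-0.48, adjusted p = 0.000247, counted under 1 of its 2 identifiers), the nucleolar GTPase gene Gnl3 (-0.32, adjusted p = 1.27e-08), Epb41l4aos (-0.24) and Eef1b2 (-0.13), and Snhg5 (0.55, adjusted p = 0.0343) and the chaperone gene Hspa8 (0.17) rose. Of 14 other long noncoding genes tested, 1 rose and 2 fell in each phase. Dancr fell in both, by 0.48 in S and by 0.65 in G2M on the log2 scale. Mir142hg (-0.39) fell in S and Pvt1, a neighbour of Myc, fell in G2M (-0.35), while Oip5os1 rose in S (0.41) and Kcnq1ot1, which silences an imprinted domain, in G2M (0.30).

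Depth per cell followed the same order as phase, so the members were also read against it. From the shallowest to the deepest tertile of the tumor-gated cells of a library, the level of Snhg20 went from 109.5 to 69.5, from 109.8 to 53.2, from 112.6 to 73.4 and from 112.1 to 58.1 CPM. That of Snhg3 went from 66.0 to 39.9, from 87.2 to 44.4, from 47.0 to 35.6 and from 61.9 to 44.9 CPM. Both were lower in the deepest tertile in 4 of 4 libraries. Malat1 was higher there in 4 of 4 libraries, by a factor of 1.09 to 1.38. For Gas5, Snhg1, Snhg12 and Neat1 the libraries differed in direction, with factors from 0.76 to 1.29. Mir100hg was lower in the deepest tertile in 4 of 4 libraries, but only by factors of 0.865 to 0.984.

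**Figure D4:**
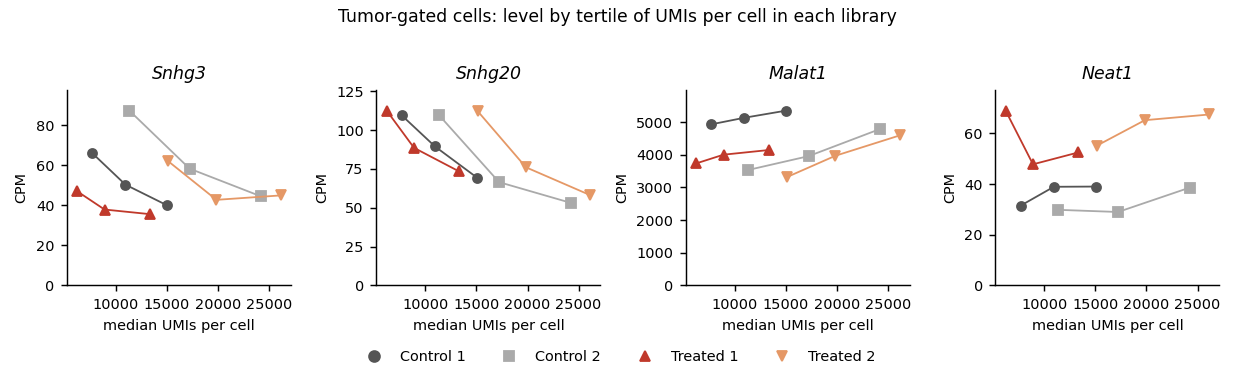
Level in CPM, on axes from 0, of Snhg3, Snhg20, Malat1 and Neat1 against the median UMIs per cell of each tertile of the tumor-gated cells, with 1 line per library. The lines of Snhg20 and Snhg3 end lower in the deepest than in the shallowest tertile in each library and those of Malat1 end higher.

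Phase and depth could be separated in part by splitting the cells of each library and phase at their median depth. Within G1 alone, Snhg20 was lower in the deeper than in the shallower cells in 4 of 4 libraries, by factors of 0.619 to 0.767, and over all 12 combinations of library and phase it was lower in 12. Snhg3 was lower in the deeper cells in 4 of 4 libraries within G1, by factors of 0.562 to 0.872, and in 10 of 12 overall. Mir100hg was lower in the deeper cells in 2 of 12 and Malat1 in 2 of 12. So Snhg20 and Snhg3 were lower both in later phases and in deeper cells of the same phase, while Mir100hg was lower in later phases but within a phase was lower in the deeper cells in 2 of 12 combinations only. Across the cells of 1 library (528 to 1256 cells), Spearman's rho of a member's share of UMIs with total UMIs lay between -0.198 and -0.0159 for Snhg20, between -0.136 and 0.0823 for Snhg3, which was above 0 in Treated 1, and between 0.113 and 0.321 for Malat1. These are weak values of sparse counts that share depth with both axes, and they are a description only. No member's part in the depth of a cell was tested.

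At the edge of the keratin gate, 4, 6, 14 and 1 kept cells had exactly 5 keratin UMIs and 2, 4, 23 and 3 had 4. Cells with 5 to 9 keratin UMIs had Malat1 at 9343, 6272, 4281 and 2035 CPM, and those with 1 to 4 had it at 13085, 9809, 5302 and 7532 CPM. Neat1 was at 57.2, 29.0, 82.6 and 0 CPM just inside and at 210.2, 130.4, 198.2 and 237.9 CPM just outside. Just inside, Neat1 rested on 4, 4, 38 and 0 UMIs in 21, 18, 90 and 5 cells, and Malat1 in Treated 2 on 61 UMIs. In each library Malat1 was higher just outside the gate than just inside it. Neat1 had the same order, but except in Treated 1 its level just inside was too near 0 UMIs to be firm.

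Across the gated classes the members took different orders, shown over the 10 sums of a class and a library with at least 20 cells. Immune sums of that size came from the treated libraries only, since the controls held 14 and 16 macrophage-gated, 0 and 0 B-gated, 10 and 1 T-gated and 4 and 3 neutrophil-gated cells. The gates held their own markers, with the macrophage markers at 15214 and 16903 CPM in macrophage-gated cells and the B cell markers at 16214 and 20723 CPM in B-gated cells of Treated 1 and Treated 2. The neutrophil gate was mixed, with 2 of 6 B cell markers detected at 9069 CPM together, and hemoglobin genes stood at 281970 CPM there and between 61240 and 77337 CPM in the other immune sums of this size. The CPM of the members are relative to totals that include these UMIs.

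Among these sums, whose immune part came from treated libraries only, Gas5 was highest in lymphocytes. It was at 304.5 CPM in B-gated cells of Treated 1 (54 UMIs) and 346.4 in those of Treated 2 (93 UMIs), and at 241.1 CPM in T-gated cells of Treated 2. The tumor-gated cells were at 64.4 ± 12.8 CPM (SD, n = 4). Macrophage-gated cells of the treated libraries, at 36.7 and 130.4 CPM, spread over the tumor-gated level and could not be ordered against it. In the controls, the wider macrophage gate described below had Gas5 at 123.9 CPM in Control 1 (8 UMIs) and 344.8 CPM in Control 2 (21 UMIs). The latter is as high as in B-gated cells, so the order is not shown for control macrophages. After thinning to 1000 UMIs, a UMI of Gas5 was found in 20.8% and 30.9% of B-gated cells and in 4.95% to 7.95% of tumor-gated cells. Unthinned, the shares were 28.6% and 44.8% of B-gated cells, at median depths of 902 and 1691 UMIs, and 36.5% to 70.8% of tumor-gated cells, which are far deeper.

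Mir100hg was highest in tumor-gated cells, at 71.1 ± 10.7 CPM (SD, n = 4). It had 1 UMI each in the B-gated cells of Treated 1 and Treated 2 (5.64 and 3.73 CPM), 3 and 2 UMIs in macrophage-gated cells (27.5 and 8.69 CPM) and 0 UMIs in the T- and neutrophil-gated cells of Treated 2, where 3 UMIs would have been 34.4 and 57.4 CPM. Thinned to 1000 UMIs, 6.31% to 7.57% of tumor-gated cells had a UMI, and 0 of 72 and 0 of 110 B-gated cells, which allows shares of cells with a UMI of up to 4.17% and 2.73% at this thinned depth and does not limit the share of cells that express the gene. Whether the few UMIs in immune-gated cells were free RNA was not tested.

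Among these sums Snhg20 and Snhg3 were also higher in tumor-gated cells than in immune-gated cells of the treated libraries, with less distance. Snhg20 was at 78.6 ± 8.12 CPM (SD, n = 4) in tumor-gated cells, at 45.9 and 8.69 in macrophage-gated, at 45.1 and 14.9 in B-gated and at 23.0 CPM in T-gated cells. These immune values rest on 2 to 8 UMIs each, and the immune classes did not differ from each other beyond their spread. Snhg3 was at 48.0 ± 7.52 CPM in tumor-gated cells and between 18.6 and 34.4 CPM in the immune sums with UMIs, on 3 to 5 UMIs each. In the controls the order of Snhg3 was the other way with the wider macrophage gate described below. It was at 61.9 and 65.7 CPM there, on 4 UMIs each, against 48.6 and 56.9 CPM in tumor-gated cells of Control 1 and Control 2. Snhg1, at 49.0 ± 4.27 CPM in tumor-gated cells and between 33.8 and 68.9 CPM in macrophage-, B- and T-gated cells, showed no order beyond the spread. Snhg12 was at 27.1 ± 3.35 CPM in tumor-gated, 22.3 to 39.5 in B-gated and about 9 CPM in macrophage-gated cells, the last on 1 and 2 UMIs.

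Malat1 was higher in every immune sum than in tumor-gated cells. It stood at 5768 and 6567 CPM in macrophage-gated, 6959 and 8355 in B-gated, 11447 in T-gated and 15784 in neutrophil-gated cells, against 4020 to 5194 CPM in tumor-gated cells. Neat1 was highest in myeloid cells, at 357.7 and 460.7 CPM in macrophage-gated and 612.2 CPM in neutrophil-gated cells. Its level was 50.8 and 67.0 CPM in B-gated and 68.9 CPM in T-gated cells, which overlapped with the 33.9 to 63.9 CPM of tumor-gated cells within their spread. Thinned to 1000 UMIs, 30.0% and 45.7% of macrophage-gated cells had a UMI of Neat1, against 2.78% and 5.45% of B-gated cells and 2.96% to 5.67% of tumor-gated cells.

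**Figure D5:**
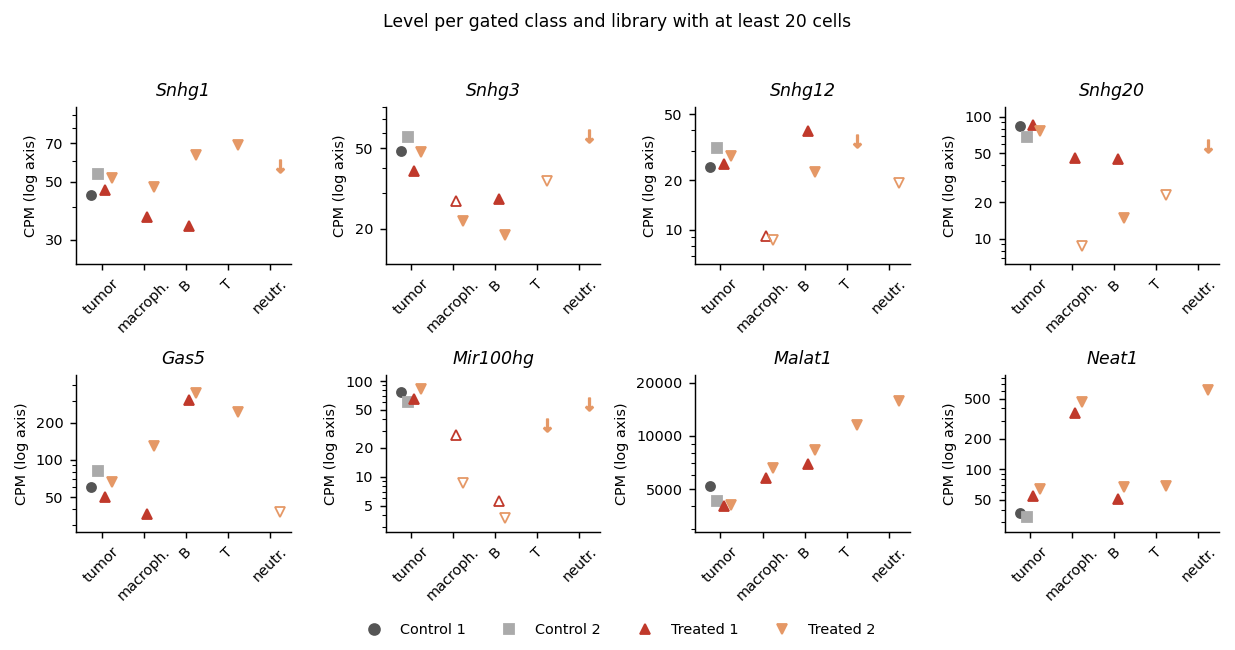
Level of each member in CPM, on log axes, per gated class and library with at least 20 cells; open points rest on 3 UMIs or fewer and arrows mark 0 UMIs, drawn at the level of 3 UMIs. Mir100hg is highest in tumor-gated cells, Gas5 in B- and T-gated cells, and Neat1 in macrophage- and neutrophil-gated cells.

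A wider macrophage gate, chosen after the first left under 20 control cells, took 37, 22, 258 and 170 cells and allowed a treatment comparison in that class. Neat1 was at 216.8, 180.6, 337.9 and 418.1 CPM. Its log2 fold change was 0.96 (SE 0.35, adjusted p = 0.0752, edgeR, 2674 genes tested) and did not pass. Malat1 was at 10050 and 9803 against 5958 and 7375 CPM, a log2 fold change of -0.55 (SE 0.18) at an adjusted p of 0.04995, just past the threshold. It was the 1 member of 5 tested that was called lower, beside 4.67% of all genes, and 0 were called higher, beside 4.60%. The call of Malat1 was lost in 6 of 8 alternatives, with adjusted p between 0.0171 and 0.652, and without Treated 1 its log2 fold change was -0.19. Hemoglobin genes took part of the treated UMIs, and without them Malat1 was at 10053, 9806, 6508 and 8036 CPM.

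Gas5 was at 123.9, 344.8, 107.2 and 133.9 CPM, on 8, 21, 33 and 49 UMIs. Its log2 fold change was -0.91 (SE 0.41, adjusted p = 0.167), and that of Snhg3, on 4 to 9 UMIs per library, was -1.67 (SE 0.74, adjusted p = 0.154). Snhg1 was at -0.65 (adjusted p = 0.579). Snhg20 and Mir100hg had 0 UMIs in both controls, at or under the limit of 3 UMIs, and no fold is given. Of 11 other snoRNA hosts tested, Zfas1 (-2.27, adjusted p = 0.0102) and Eef1b2, a translation elongation factor gene (-0.84, adjusted p = 0.0165), fell and 0 rose, beside 4.67% and 4.60% of all genes. Their median was -0.06, beside 0.04 over all genes. Of 5 other long noncoding genes 0 passed in edgeR, with a median of 0.57. At an unadjusted p under 0.05 there was 1 of these 5 in each direction, beside 638 of 2674 genes in either direction.

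The treatment effect in the wider macrophage gate was set against that in tumor-gated cells by an interaction term over the 8 sums. Among members with more than 3 UMIs in each macrophage sum, the difference in log2 fold change was 0.58 for Neat1 (SE 0.37, adjusted p = 0.789), 0.02 for Malat1 (SE 0.17, adjusted p = 1), -0.27 for Gas5 (SE 0.40, adjusted p = 0.916) and -1.08 for Snhg3 (SE 0.76, adjusted p = 0.795). The median of this difference over all genes was 0.51, with an upper quartile of 5.07. That set also held genes with 0 UMIs in the control macrophage sums, so Neat1 cannot be ranked against it. A difference between the classes was not detectable at this depth for these members. Over 11601 genes, 0.431% were called with a higher and 0.586% with a lower effect in macrophage-gated cells, and 0 of the 8 members in edgeR. At an unadjusted p under 0.05 there was 1, Snhg20, which had 0 UMIs in both control macrophage sums, beside 915 of 11601 genes in either direction.

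The genes most like each member were taken by Pearson's r of log2(CPM + 1) over the same 10 sums, among 7859 genes with a mean of at least 10 CPM. The sums share libraries and differ mainly in class, and r is a description only. For Mir100hg they were Tuba3b, Gpa33 and Lmna (r between 0.991 and 0.994), for Snhg3 Ddx18, Hikeshi and Sap18 (0.995 to 0.996), for Snhg20 Nol8, Tpm1 and Polr2f (0.985 to 0.991), and for Snhg1 Pcm1, Casp8ap2 and Spcs2 (0.996 to 0.997). Gas5 was most like Sbk1, Hvcn1 and Cyb561a3 (0.964 to 0.983), genes at 1.2 to 2.05 CPM in tumor sums and 18.9 to 24.7 CPM in immune sums. Malat1 was most like the splicing genes Clk1 and Srsf5 and Mctp2 (0.951 to 0.959), Neat1 most like Diaph1, Dusp1 and Iqgap1 (0.982 to 0.986) and Snhg12 most like Cspp1, Pqbp1 and Trim37 (0.964 to 0.983).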

How the data were processed

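Each library has 1 matrix of raw, unnormalized UMI counts as deposited, written by Cell Ranger 7.1.0 per the file headers. The submitters' processing notes name mm10 and the paper's text names hg38, while the annotation and the use of intronic reads are not given in the sources used here. Libraries were grouped by the treatment in their labels, and the study speaks of independent sets and of biological replicates without saying which animals a library came from, so p-values measure the spread between these libraries, which may be technical. The members, lists and tests were chosen with earlier results of these data known.

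Cells with at least 200 genes and at most 10% mitochondrial UMIs were kept. Immune gates required at least 3 UMIs of Cd79a, Cd79b and Ms4a1 (B), 2 of Cd3d, Cd3e, Cd3g, Trac, Trbc1 and Trbc2 (T), 3 of Csf1r, Cd68, Fcgr1, Adgre1, C1qa, C1qb, C1qc, Ms4a7 and Ccr2 (macrophage and monocyte) or 20 of S100a8, S100a9 and Retnlg (neutrophil). Cells that reached several immune gates were left out. The wider macrophage gate, chosen after seeing the data, required 5 UMIs of the gate genes and 7 further markers together. Doublets were not called, and leaving out tumor-gated cells that reached an immune gate was an alternative.

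UMIs were summed per library and class, or per library and phase, and differences were tested by the quasi-likelihood method of edgeR (version 4.0.16 in R 4.3.3) after filterByExpr and TMM scaling, with p-values adjusted by Benjamini-Hochberg and a threshold of 0.05. The phase model had the library as a block, and phases came from CellCycleScoring of Seurat 5.3.0. CPM are UMIs scaled to a total of 1e6 per sum. Shares have exact Clopper-Pearson intervals at 95% (scipy 1.17.1), a count of 0 allows up to 3 counts, and both cover counting error only. Whether the labels' replicate numbers pair libraries is not stated. Same-numbered libraries gave 1 correlation of deviations, 0.125. The median depth of tumor-gated cells went with the number, at 10935 and 8891.5 UMIs in Control 1 and Treated 1 against 17214 and 19843 in Control 2 and Treated 2. Simulated data with 200 changed genes served as a check of edgeR. In tumor-gated cells, edgeR called in the right direction 81.9% of those tested (163 genes, beside 17 unchanged genes called). The share was 24.4% with the wider macrophage gate (42, beside 1) and 88.4% between G2M and G1 (175, beside 8). These shares hold for the size of change set in those data. Recovery at the log2 fold changes of the members in tumor-gated cells was not tested.

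Always named were the 8 members. Of 27 other snoRNA hosts and 28 other long noncoding genes listed, 25 and 25 symbols were in the files, and those called are named, up to 4 in each direction by size. The 5 coding neighbours and the 3 genes most like each member are also named. Alternatives were DESeq2 1.42.0, no filter on low counts, cells with up to 20% mitochondrial UMIs, with at least 500 genes or with 10 keratin UMIs, thinned cells, each phase alone, the replicate number as a block, immune gates 1.5 times as high, and each library left out. Added after seeing the data were library size scaling, tumor-gated cells with at most 1 macrophage UMI, hemoglobin genes left out, shared barcodes left out and cells near a phase limit left out. Some listed genes are not reported here and were left out of the lists' counts, medians and sums.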

Additional observations from a re-analysis of the deposited data

How the results depend on the processing

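Depth and 2 libraries per group limit the treatment comparison. In tumor-gated cells the counts of genes higher and lower, 210 and 58, became 86 higher with DESeq2, 137 higher without cells that reach an immune gate, 122 higher with thinned cells, 70 higher and 21 lower in G1 cells only, 58 higher in S cells only, 76 higher in G2M cells only, 79 higher with at most 1 macrophage UMI and 446 higher with library size scaling. With the replicate block, 654 were higher and 384 lower, Neat1 was called again, and Snhg3 (adjusted p = 0.00445), Gas5 (0.00492) and Malat1 (0.0387) also passed as lower, although whether the numbers pair libraries is not stated. Leaving out 1 library gave 69 to 345 higher and 9 to 106 lower, the fewest without Control 2 (69 and 9), and without Control 1 129 were higher, without Treated 1 106 were lower and without Treated 2 345 were higher. Without 1 library the adjusted p of Neat1 lay between 0.00382 and 0.25 and its log2 fold change between 0.51 and 0.69, and in S and G2M cells alone its adjusted p was 0.146 and 0.228. Gas5 also passed as lower without Treated 2 (-0.56, adjusted p = 0.023) and, with the wider macrophage gate, without Control 1 (-1.55, adjusted p = 0.0456), where it was at -0.06 without Control 2.

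With the wider macrophage gate (123 higher, 125 lower), DESeq2 called 31 higher, no filter on low counts gave 54 lower, and library size scaling gave 73 and 82. Leaving out 1 library gave 16 to 49 higher and 0 to 89 lower, with 44 higher without Control 1, 49 and 63 without Control 2, 23 and 0 without Treated 1 and 16 and 3 without Treated 2. The interaction (50 higher, 68 lower) gave 22 higher without a filter, and 0 to 27 higher and 0 to 50 lower with 1 library left out, 0 and 0 without Treated 1. In the phase comparisons, thinned cells gave 408 higher and 393 lower in S and 517 and 593 in G2M, where fewer UMIs enter, and library size scaling gave 440 lower in S and 647 lower in G2M. Leaving out 1 library gave 630 to 666 higher and 467 to 656 lower in S, and 765 to 835 and 874 to 1023 in G2M.

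None of the values whose direction turned had passed the test. For treatment in tumor-gated cells these were Snhg1 in S cells only (0.12), Snhg12 with thinned cells (0.034), Snhg20 in G1 cells only (0.0051), in S cells only (0.040), with at most 1 macrophage UMI (0.044) and with library size scaling (0.091), and Mir100hg in S cells only (0.070) and with library size scaling (0.10). With 1 library left out, Snhg20 ran from -0.20 to 0.15 and Mir100hg from -0.23 to 0.18, and with the wider gate Snhg1, at -0.65 with all libraries, ran from -1.31 to 0.38, the last without Control 1. The interaction of Malat1 was -0.13 without a filter and ran from -0.14 to 0.12, and that of Gas5, at -0.27 with all libraries, from -0.70 to 0.28, the last without Control 2. In S, Snhg1 was at 0.067 with thinned cells, Snhg12 at -0.093 without cells near a phase limit and at -0.040 with at most 1 macrophage UMI, and Neat1 at 0.021 with library size scaling. With 1 library left out, Snhg1 ran from -0.15 to 0.00014, Snhg12 from -0.017 to 0.12 and Neat1 from -0.086 to 0.038. In G2M, Snhg12 was at 0.075 with thinned cells and ran from -0.19 to 0.0065 with 1 library left out. The cause was not tested for any of these. Of 333 values of members under alternatives, 288 kept direction and side of the threshold. With immune gates 1.5 times as high, 30 of 32 levels moved by less than their spread. The tests planned for the first macrophage gate and its interaction could not be fitted, with under 20 control cells.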

Other observations

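Barcodes that exceeded the mitochondrial limit were left out of the comparisons above, except the alternative with up to 20% mitochondrial UMIs. They are pooled here without a gate. Of those in Control 1, Control 2 and Treated 1, only 9, 3 and 1 reached the keratin gate. These pooled barcodes are therefore not a sample of tumor-gated cells. With mitochondrial genes removed from the totals, Malat1 was at 47405 CPM in the 49 such barcodes of Control 1 and 42006 CPM in the 28 of Control 2, and at 8645 CPM in the 13 of Treated 1 and 12731 CPM in the 12 of Treated 2. Mir100hg was at 695.5 and 461.4 CPM in those of the controls and at 172.9 and 0 CPM in those of the treated libraries, where it rested on at most 2 UMIs. Snhg3 had 1 UMI in the barcodes of each of Control 1, Control 2 and Treated 1 and 0 in those of Treated 2, too few for a level. The median depth of these barcodes lay between 1034 and 2562.5 UMIs.

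Among kept tumor-gated cells, those with 2% to 5% mitochondrial UMIs had higher levels of Mir100hg than those under 2% in each library, with mitochondrial genes removed from the totals. The values were 102.1 against 75.6 CPM in Control 1, 72.7 against 58.3 in Control 2, 78.9 against 62.6 in Treated 1 and 92.2 against 74.4 in Treated 2. Gas5 shared this in each library, with 70.38 against 60.24, 88.11 against 80.75, 60.16 against 48.6 and 70.95 against 63.4 CPM. Malat1 did not share it, with 4784 against 5311, 4075 against 4400, 3900 against 4123 and 4200 against 4177 CPM. These are descriptions of cells within a library, without a test.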
